A study of Mus musculus with 2 samples.

Results

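The Trim30 and Trim12 gene cluster is a run of related TRIM genes on mouse chromosome 7. Its 8 members are Trim30a, Trim30b, Trim30c, Trim30d, Trim12a, Trim12c, Trim34a and Trim6, chosen by name out of 55536 genes and found by their symbols in the transcript tables of both libraries. The choice was by name and not by measured values, but earlier results of these data were known when it was made. The 2 libraries were made from ribosome-depleted total RNA of the nuclear fraction, labelled nucleoplasmic, of C57BL/6J bone marrow-derived macrophages, which are primary cells grown from marrow. All cells had a first exposure to Lipid A at 100 ng/ml lasting 12 h, then a wash of 12 h, then a second exposure at the same dose lasting 10 min. Lipid A is the portion of lipopolysaccharide from bacteria that TLR4 senses. Starting RNA was 1 µg for replicate 1 and 500 ng for replicate 2, and sex and age were not collected. The libraries carry the same donor identifier and separate biosample identifiers. The labels do not say whether these were separate cultures or animals, so the spread between the libraries may be technical. Untreated cells and other times were not analysed here, so every value below is a level and none is a response to Lipid A.

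TRIM proteins carry a RING domain, a B-box and a coiled coil, and most of them act as ubiquitin ligases. Many TRIM genes are induced by type I interferon, and many TRIM proteins of this cluster end in a B30.2 domain, which binds target proteins. In mouse macrophages TRIM30a lowers NF-κB signalling downstream of Toll-like receptors by bringing about the loss of the adaptors TAB2 and TAB3. The cluster also holds the rodent counterparts of primate TRIM5, whose product TRIM5α blocks incoming retroviral capsids.

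Expected counts assigned to genes, which are estimated read numbers that need not be whole, summed to 24444189 in replicate 1 and 18051075 in replicate 2 after rounding. All 8 macrophage markers examined were detected, led by Lyz2 (lysozyme) at 960.7 ± 10.8 TPM and Mpeg1 (perforin-2) at 648.5 ± 19.9 TPM (SD, n = 2), where TPM is a level per transcript, corrected for length and scaled to the same total in each library. The 12 markers examined for T and NK cells, neutrophils, dendritic cells and fibroblasts were not detected. The summed level of the T and NK cell markers Cd3e, Cd3d and Ncr1 was 0.11 TPM in replicate 1 and 0.02 in replicate 2. Neutrophil markers (S100a8, Ly6g, Elane) summed to 0.28 and 0.27 TPM, dendritic cell markers (Flt3, Zbtb46, Siglech) to 0.73 and 0.81, and fibroblast markers (Col1a1, Col3a1, Pdgfra) to 0.14 and 0.04. In bulk RNA of this kind, fewer cells of a type and less RNA per cell cannot be told apart.

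In GENCODE M21 on mm10 the cluster ran over 289.057 kb, chr7:104218793-104507849. Trim6 and Trim34a lay at its start on the plus strand. The other 6 members followed on the minus strand, in the order Trim12a, Trim12c, Trim30b, Trim30c, Trim30a and Trim30d. Trim6 (ENSMUSG00000072244.11) covered chr7:104218793-104235152 and Trim34a (ENSMUSG00000056144.14) chr7:104244457-104262234. Trim12a (ENSMUSG00000066258.13) covered chr7:104299894-104315466 and Trim12c (ENSMUSG00000057143.15) chr7:104338754-104353362. Trim30b (ENSMUSG00000052749.9) lay at chr7:104355382-104369884 and Trim30c (ENSMUSG00000078616.2) at chr7:104382065-104400837. Trim30a (ENSMUSG00000030921.17) lay at chr7:104409025-104465193 and Trim30d (ENSMUSG00000057596.13) at chr7:104470014-104507849.

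The start regions show how the members resemble each other. RefSeq windows on GRCm38.p6, each 250 bases before to 50 after an annotated start, were matched by symbol for all 8 members. They were searched on both strands for GAAA, any 2 bases and GAAA again, the core of the interferon-stimulated response element, through which interferon-activated factors act. The core was found for 5 of 8 members, against 3.44% of the 32851 RefSeq start windows of all genes. That share is per window, while a member counted if any of its windows held the core, and Trim30a had 2 windows. The members are related copies, so these matches are not independent of each other. In all 5 it read, on the gene's own strand, as TTTC, 2 bases and TTTC. The stretches below are lined up on it, with the core in capitals, and Trim5, a neighbour inside the cluster, is added because its stretch equals that of Trim12a. The Trim30c stretch is the part of its window that aligned with Trim30a, with the corresponding bases in capitals.
Trim30a: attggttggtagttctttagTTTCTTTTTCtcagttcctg
Trim30d: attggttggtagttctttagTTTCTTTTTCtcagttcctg
Trim30c: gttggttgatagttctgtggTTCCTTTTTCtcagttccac
Trim12a: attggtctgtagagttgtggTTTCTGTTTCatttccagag
Trim5: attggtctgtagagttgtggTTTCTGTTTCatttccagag
Trim12c: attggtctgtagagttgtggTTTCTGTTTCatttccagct
Trim34a: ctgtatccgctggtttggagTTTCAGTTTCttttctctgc
These lie on the minus strand at chr7:104465210-104465249 (Trim30a), chr7:104507871-104507910 (Trim30d), chr7:104400896-104400935 (Trim30c), chr7:104315466-104315505 (Trim12a), chr7:104288136-104288175 (Trim5) and chr7:104353359-104353398 (Trim12c), and on the plus strand at chr7:104244447-104244486 (Trim34a).

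Trim30a and Trim30d had the same 40 bases, and their whole windows were 93.6% identical over 295 aligned bases. Trim30c aligned with Trim30a at 86.4% over 191 bases. Its capitals differed from those of Trim30a by T3C, counted from 1 at the 5′ end of the capitals, and so did not hold the core. Trim12c matched Trim12a at 95.0% over 260 aligned bases, and Trim5 matched Trim12a at 100% over 241. The first base of the core lay 36 bases before the annotated start of Trim30a, 41 before that of Trim30d and 29 before that of Trim12c. In Trim12a and Trim34a it began at base 11 after the RefSeq start. That start of Trim12a lies 29 bases upstream of the 5′ end of its GENCODE gene, so its core lies before that end. A second RefSeq window of Trim30a, 19.068 kb downstream, also held the core. The windows of Trim30b, Trim30c and Trim6 held none. The only Trim30b window stood 11.238 kb downstream of the 5′ end of the GENCODE gene, so the bases before that end were not searched. A shorter core, with GAA in place of the last GAAA, was found for 5 of 8 members and in 8.56% of all windows. The gamma-activated site TTCNNNGAA was found for 1 of 8, Trim30c, and in 8.30% of all windows.

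The 250 bases before the start of Trim30a, the member with the highest level, and of Trim6, the lowest, are given to show the contrast, with the core of Trim30a in capitals. They lie at chr7:104465194-104465443 on the minus strand and chr7:104218545-104218794 on the plus strand.
Trim30a: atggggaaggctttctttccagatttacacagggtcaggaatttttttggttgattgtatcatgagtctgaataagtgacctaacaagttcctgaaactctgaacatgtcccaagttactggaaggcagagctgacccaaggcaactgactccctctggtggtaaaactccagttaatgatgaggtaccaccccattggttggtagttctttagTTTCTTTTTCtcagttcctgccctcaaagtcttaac
Trim6: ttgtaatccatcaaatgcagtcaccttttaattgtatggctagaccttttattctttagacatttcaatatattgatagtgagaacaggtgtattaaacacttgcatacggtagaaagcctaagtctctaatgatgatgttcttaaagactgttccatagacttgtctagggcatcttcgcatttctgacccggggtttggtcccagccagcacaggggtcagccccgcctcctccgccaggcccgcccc
The Trim30a bases hold 1 core and the Trim6 bases hold none.

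All 8 members were detected, which here means reaching 1 TPM and 10 expected counts in each library, against 42.9% of 22028 protein-coding genes. Together they held 0.161% of the counts in replicate 1 (exact 95% binomial interval 0.159 to 0.162) and 0.174% in replicate 2 (0.172 to 0.176). These intervals cover counting error only. The summed level of the members was 371 TPM in replicate 1 and 421 TPM in replicate 2. TPM here is scaled over entries of every type, not over protein-coding genes alone. Rescaled to protein-coding genes, the mean of Trim30a was 699 TPM, against 148 TPM on the scale used here.

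Trim30a, the TAB2 and TAB3 regulator described above, was the highest member. It stood at 128 TPM in replicate 1 and 168 TPM in replicate 2, from 16753 and 15386 expected counts, a mean level of 148 ± 28.5 TPM (SD, n = 2). Its mean lay above 98.6% of the detected protein-coding genes. Trim30d, its neighbour and closest relative in the start region, stood at 85.7 TPM in replicate 1 and 99.8 TPM in replicate 2, a mean of 92.8 ± 10.0 TPM. The lower Trim30a library lay above the higher Trim30d library, so their ranges did not overlap. Trim30a alone held 37.3% ± 3.85 of the members' summed TPM and Trim30d held 23.4% ± 0.421.

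**Figure D1:**
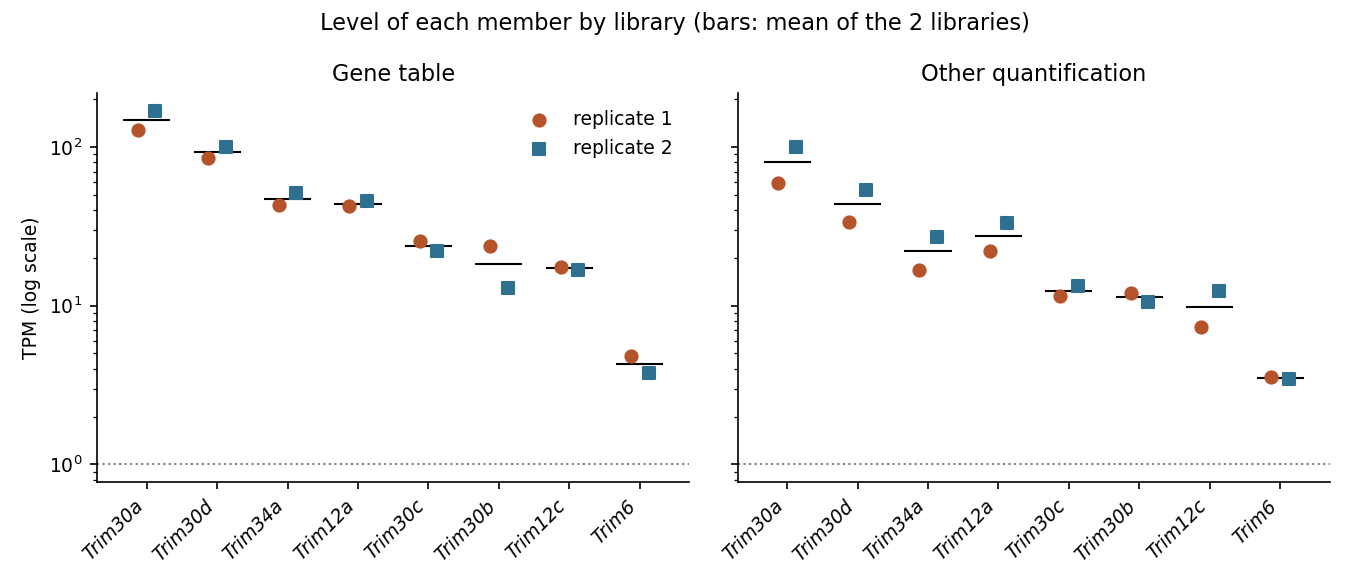
TPM on a log scale (y) of each member (x) in replicate 1 (circles) and replicate 2 (squares), with black bars for the mean of the 2 libraries and a dotted line at 1 TPM. The left panel shows the gene table and the right panel the other quantification; in both, Trim30a and Trim30d are highest and Trim6 is lowest.

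The other Trim30 genes were lower. Trim30c stood at 25.6 TPM in replicate 1 and 22.2 TPM in replicate 2. Trim30b stood at 23.7 and 12.95 TPM in replicates 1 and 2, the widest spread of the 8 relative to its mean. The ranges of Trim30c and Trim30b overlapped, so their order is not settled by these libraries. Both lay below Trim30a and Trim30d in each library.

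Trim12a and Trim12c are counterparts of primate TRIM5, and TRIM12c in mouse has been reported to work with TRAF6 in raising interferon and NF-κB signalling. Trim12a stood at 42.3 TPM in replicate 1 and 45.6 TPM in replicate 2, a mean of 43.9 ± 2.34 TPM. Trim12c stood at 17.5 and 16.9 TPM, a mean of 17.2 ± 0.417 TPM. The TPM ranges of Trim12a and Trim12c did not overlap, although their start windows were 95.0% identical. Their expected counts were close, at 2182 and 1716 for Trim12a and 2446 and 1650 for Trim12c, replicate 1 first. The gap in TPM thus rests on dividing by length. The non-coding Trim12a-206, of 562 bases, held 36.9% and 28.7% of the Trim12a TPM from 214 and 124 counts. Trim5, which carries the same 40 bases as Trim12a, stood at 6.17 TPM in replicate 1 and 8.37 TPM in replicate 2.

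Trim34a is the mouse relative of human TRIM34, which acts with TRIM5α against some retroviral capsids. It stood at 42.9 TPM in replicate 1 and 51.4 TPM in replicate 2, and its range overlapped that of Trim12a. TRIM6 makes unanchored ubiquitin chains that activate the kinase IKKε in the interferon pathway. Trim6 was the lowest member at 4.85 and 3.75 TPM, from 551 and 281 expected counts, and lay above 28.5% of the detected protein-coding genes. Its range lay below that of every other member.

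The order of mean levels was therefore Trim30a, Trim30d, Trim34a, Trim12a, Trim30c, Trim30b, Trim12c and Trim6. The neighbouring pairs Trim34a and Trim12a, Trim30c and Trim30b, and Trim30b and Trim12c overlapped in this order by TPM, and the other 4 pairs did not. By mean share of the members' expected counts, Trim30a, Trim30d and Trim34a also came first and Trim6 last. The order between them was Trim30b (5.90%), Trim12c (5.74%), Trim12a (5.51%) and Trim30c (3.41%). The middle of the order thus depends on whether length is divided out. A second deposited table, in which transcripts were quantified directly from the reads and summed here to genes, is called the other quantification. It put Trim30a at 59.8 TPM in replicate 1 and 100.5 TPM in replicate 2 and Trim6 at 3.54 and 3.46 TPM. TPM there was scaled over its own set of targets, so only the order is compared. By mean level Trim12a stood above Trim34a there, in both libraries, and the other 6 members kept their places.

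**Figure D2:**
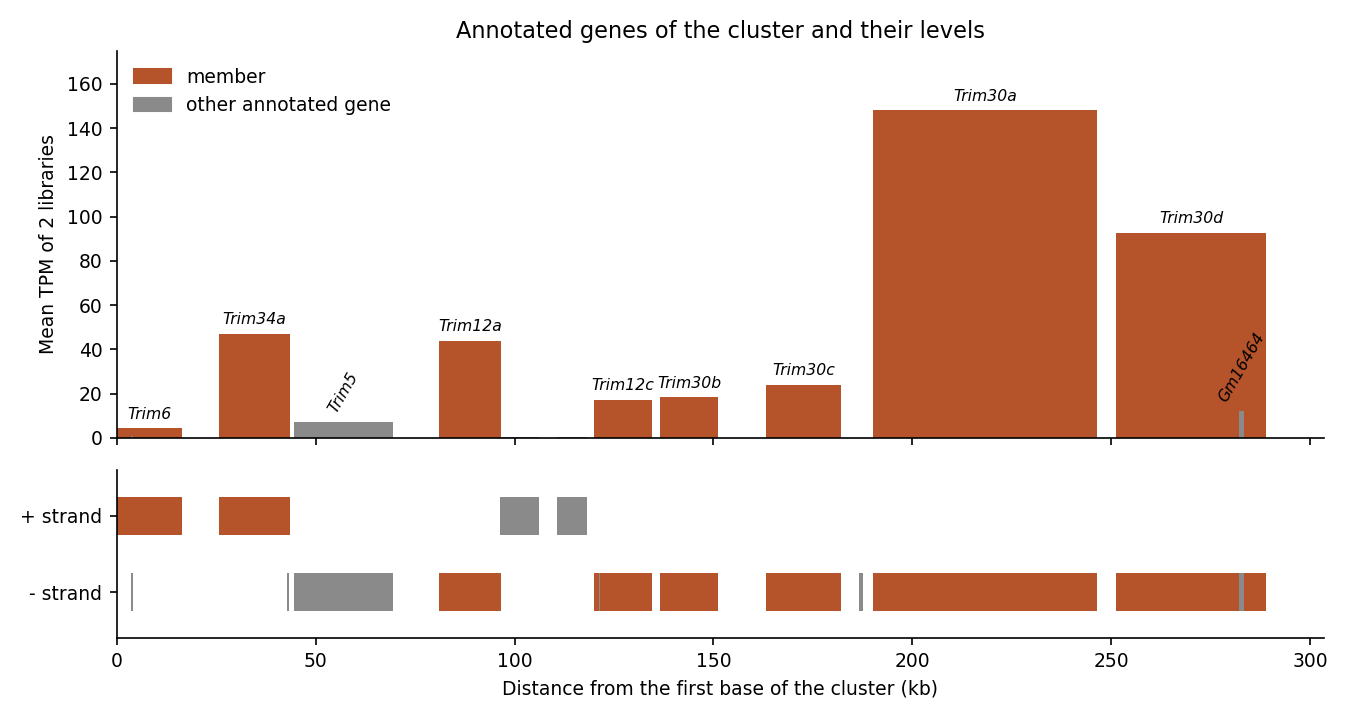
Mean TPM of the 2 libraries (upper panel, y) and strand (lower panel) of the annotated genes between the outermost members, against distance in kb from the first base of the cluster. Each bar is as wide as its gene; members are coloured and other genes grey, with Trim30a and Trim30d at the right end.

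Few other genes in and around the cluster reached a TPM of 1. Of the 10 other genes annotated between the outermost members, 2 reached a TPM of 1 in either library in the first tables. They were Trim5 and Gm16464, a processed pseudogene inside Trim30d at 13.5 TPM in replicate 1 and 10.9 TPM in replicate 2. Of the 100-base stretches of Gm16464, 71.1% also occur in Ccnyl1, so its level is uncertain. Trim34b, a close copy of Trim34a between Trim12a and Trim12c, was at 0.25 TPM in replicate 1 and 0.30 TPM in replicate 2. The pseudogene Trim30e-ps1, which lies outside this span, was at 0.02 TPM in replicate 1 and listed at 0 in replicate 2. Within 100 kb on either side there were 16 further genes, of which 10 were olfactory receptor genes. None of the 16 reached a TPM of 1, and the highest was at 0.09 TPM. In the other quantification 3 genes inside the span reached a TPM of 1, with Gm15133 added at 4.18 TPM in replicate 1 and 2.91 TPM in replicate 2, and the highest of the 16 was at 0.85 TPM.

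Among TRIM family genes, members took leading places. In a list of 71 family genes, the 8 members included, Trim30a ranked 1 and Trim30d ranked 2 by mean TPM. Trim25, the ligase that activates the RNA sensor RIG-I, came next at 81.2 ± 4.08 TPM, and Pml, the organiser of nuclear PML bodies, followed at 48.2 ± 6.39 TPM. Trim34a ranked 5, Trim12a 6, Trim30c 10, Trim30b 18, Trim12c 19 and Trim6 28. Of the 63 family genes that are not members, of which Trim5 and Trim34b lie inside the span of the cluster, 30 were detected. The median of the mean levels was 33.9 TPM over the 8 members and 1.2 TPM over those 63. The list was chosen with earlier results of these libraries known, so these ranks are a description.

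**Figure D3:**
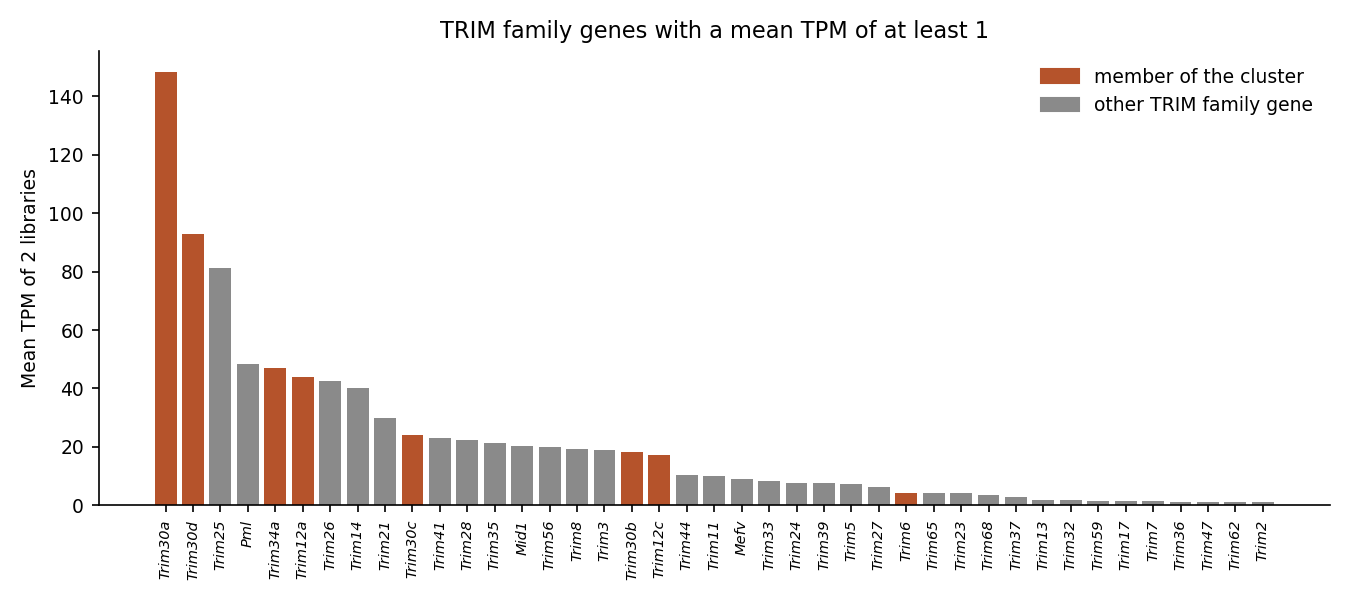
Mean TPM of the 2 libraries (y) of the 41 TRIM family genes with a mean of at least 1 TPM, ordered by level (x). Coloured bars are the 8 members of the cluster and grey bars are other family genes; Trim30a and Trim30d are the 2 highest.

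Transcripts of the members differed in what they would encode. In the full-length members the first coding exon holds 420 or 423 coding bases and encodes the RING domain and the B-box, and the last coding exon encodes the B30.2 domain. Trim30a was read mostly as its full transcript Trim30a-201, which held 92.5% of the gene's TPM in both libraries. The tables put all of the TPM of Trim30c and of Trim12c on 1 coding transcript each, Trim12c-201 and Trim30c-201.

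Trim30d was split between a pair of coding transcripts. Trim30d-202 held 63.1% of its TPM in replicate 1 and 59.3% in replicate 2, and Trim30d-201 held 36.9% and 40.7%. Trim30d-202 lacks exon 2 of Trim30d-201, an exon of 476 bases at chr7:104487576-104488051 with the 420 coding bases that encode the RING domain and B-box. Its coding sequence is 1041 bases, against 1491 in Trim30d-201. Trim30d-202 also has the longer last exon, 2622 bases against 792. Reads in the added part of that exon count for Trim30d-202 alone, and no table here counts reads across the exon 2 junctions, so their part in the split was not tested. The other quantification gave Trim30d-202 56.8% and 55.7% in replicates 1 and 2.

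**Figure D4:**
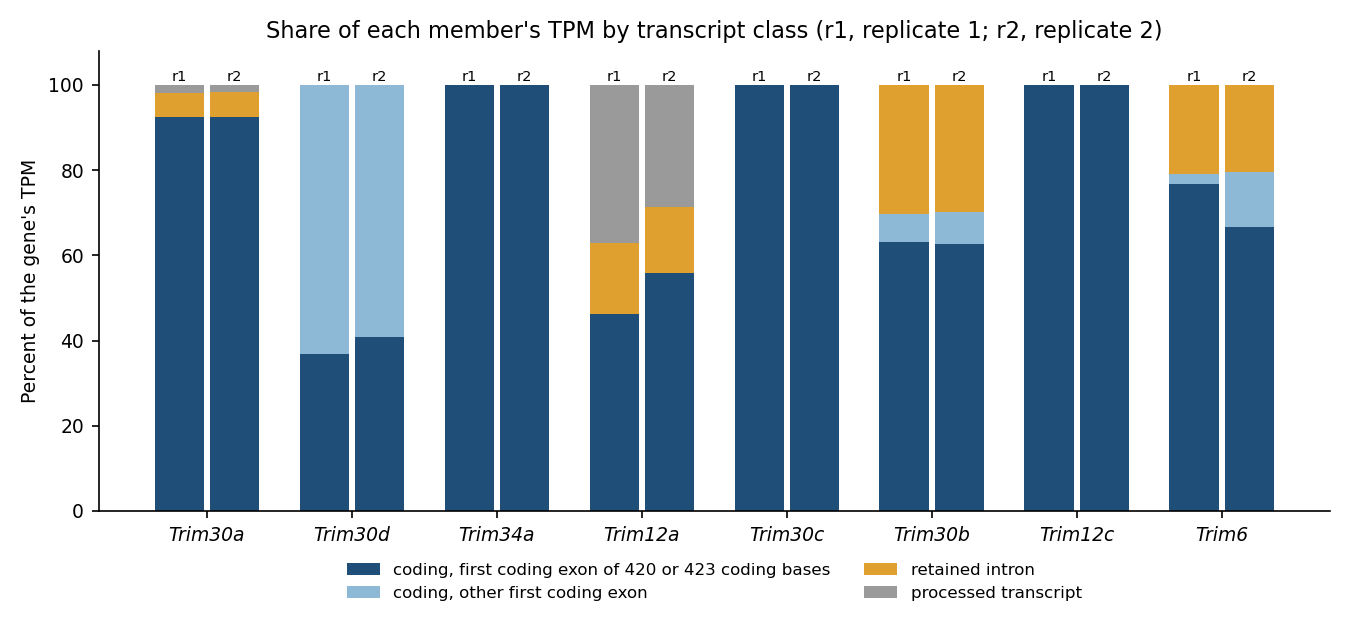
Percent of each member's TPM (y) by class of transcript, in replicate 1 (r1) and replicate 2 (r2) of each member (x). Coding transcripts are divided by whether the first coding exon has 420 or 423 coding bases; in Trim30d most of the TPM lies on a coding transcript without it, and in Trim12a, Trim30b and Trim6 at least 15.6% lies on retained introns.

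Trim12a had 4 transcripts with at least 10% of its TPM, against at most 3 in any other member. Trim12a-203, coding, held 32.6% of its TPM in replicate 1 and 39.7% in replicate 2. Trim12a-206, a processed transcript of 562 bases at the 3′ end with no coding sequence, held 36.9% and 28.7%. Trim12a-205, annotated as a retained intron, held 16.6% and 15.6%, and Trim12a-201, coding, held 11.3% and 15.6%. Because TPM divides by length, the retained intron transcript of 3730 bases held a larger part by expected counts, at 44.7% and 40.3% in replicates 1 and 2. The last coding exon of Trim12a-203 has 23 coding bases and that of Trim12a-201 has 336, against 596 in Trim12c-201 and 590 in Trim30a-201. Neither of these Trim12a transcripts therefore carries a last coding exon as long as that of Trim12c or Trim30a. In the other quantification Trim12a-206 led in both libraries, at 43.5% and 37.6%.

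Trim30b was spread over several coding forms with short coding sequences and retained intron forms. Trim30b-201 held 34.5% of its TPM in replicate 1 and 35.7% in replicate 2, Trim30b-204 held 28.7% and 26.9%, and the retained intron transcript Trim30b-202 held 23.7% and 22.3%. Their coding sequences, 567 bases in Trim30b-201 and 609 in Trim30b-204, keep the first coding exon of 423 bases. The last coding exons of these transcripts have only 48 and 186 coding bases. Trim30b-205 (coding) and Trim30b-206 (retained intron) have the same 2771 bases and were given 159 counts each in replicate 1 and 69.4 each in replicate 2, an equal division that no read can decide.

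Trim34a was divided between Trim34a-203, with 55.4% of its TPM in replicate 1 and 50.2% in replicate 2, and Trim34a-201, with 40.8% and 41.9%. They differ only in a non-coding first exon of 136 bases against 148, so the coding sequence is the same. The full coding transcript of Trim6, with a coding sequence of 1464 bases, held 71.0% of its level in replicate 1 and 66.7% in replicate 2, and the retained intron transcript Trim6-204 held 21.1% and 20.4%. In the other quantification the full coding transcript held 41.7% and 45.1% in replicates 1 and 2, and the retained intron transcript 32.4% and 31.6%.

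Retained introns are transcripts annotated as spliced incompletely, which nuclear RNA can hold in quantity. Their mean share of TPM was 30.1% ± 0.304 in Trim30b, 20.7% ± 0.467 in Trim6, 16.1% ± 0.679 in Trim12a and 5.77% ± 0.191 in Trim30a (SD, n = 2). Over 5972 detected protein-coding genes with such a transcript the median share was 26.7%, with quartiles at 14.6% and 41.4%. Trim30b lay above 56.2% of these genes, Trim6 above 38.0%, Trim12a above 27.7% and Trim30a above 8.29%. In the other quantification the Trim30a share was 24.4% in replicate 1 and 19.0% in replicate 2, carried by a transcript of 314 bases. The low share of Trim30a by TPM thus holds in the first tables only. That transcript had 30 and 27 expected counts in the first tables, replicate 1 first. It had 209 and 204 of the gene's 19812 and 21796 estimated counts in the other quantification, so by counts the share was small in both. The order of Trim30b and Trim6 was turned there, since Trim30b had 30.3% and 19.9% and Trim6 had 32.4% and 31.6%. By expected counts Trim12a came first, at 44.7% and 40.3% in replicates 1 and 2, then Trim30b at 28.5% and 27.8%. Trim6 followed at 9.37% and 9.57% and Trim30a at 0.179% and 0.175%, so the order also depends on whether length is divided out. In the first tables a mean of 7.1% of the TPM of Trim30b was on Trim30b-206, whose bases are those of the coding Trim30b-205. No transcript of the other 4 members is annotated as a retained intron.

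Related genes can share reads. Of the 100-base stretches in the annotated transcripts of Trim34a, 39.0% also occur in another gene, 18.0% in Gm47248 on the opposite strand and the rest in Trim34b on the same strand. Gm47248 was listed at 0 counts in both libraries. The SD that the authors give for assigning reads was 11.6 counts for Trim34a in each library, against 3996 and 3308 expected counts. The shared part was 8.05% in Trim12c, mostly with Trim5, 4.57% in Trim30d and 4.41% in Trim30a, each with the other, and 3.29% in Trim12a. It was 0 in Trim30b, Trim30c and Trim6. By stretches of 31 bases it came to 68.5% in Trim34a and 48.1% in Trim12c and to between 2.73% and 16.0% in the other 6 members. The assignment SD was at most 9.84 counts in Trim30a and Trim30d and at most 3.23 in Trim12a and Trim12c. Gm15133, which lies antisense over the start of Trim12a, shared 31-base stretches with Trim30b, on the opposite strand, and not with Trim12a. These were 17.6% of its own stretches and 1.95% of those of Trim30b. Strandedness is not given in the sources used here, so reads from these shared stretches cannot be told apart with certainty. The expected counts of Gm15133 were 12 and 1, replicate 1 first, while the other quantification gave it 240 and 96.3 estimated counts.

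The libraries were set against each other by TMM-normalised counts, as a log2 ratio with replicate 1 on top. With 1 library on each side there is no replicate check, and no test was made. More than 2-fold higher in replicate 1 was 1 of 8 members, Trim30b, against 5.37% of the 15431 genes of any type, and 4.05% of the 11751 that code for protein, whose counts averaged 10 or more. None of the 8 was more than 2-fold higher in replicate 2, against 3.08% of all genes. In the other quantification 0 of 8 were past 2-fold, against 3.43% of its protein-coding genes. By library totals and log2(TPM + 1) there were also 0 of 8, and no share over all genes is given here for these.

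For Trim30b the expected counts were 3137 and 1196, replicate 1 first, and its log2 ratio was 1.12 (95% counting interval 1.02 to 1.21). Its 3 leading transcripts stood at 1.07 (Trim30b-201), 1.20 (Trim30b-202) and 1.21 (Trim30b-204). They divide the same reads of the gene, so these ratios are not separate support. The log2 ratio of Trim6 was 0.70 (0.49 to 0.91), of Trim30c 0.45 (0.33 to 0.57) and of Trim12c 0.29 (0.20 to 0.38). Trim12a (0.07), Trim30d (0.05) and Trim34a (−0.0018) stood near 0, and Trim30a was the lowest at −0.15 (−0.18 to −0.12). Of these, Trim12a and Trim30d lay below 0 by library totals and by log2(TPM + 1), and Trim34a lay above 0, at 0.12, in the other quantification. The median log2 ratio was 0.18 over the members, against −0.01 over all protein-coding genes, and 6 of 8 members lay above 0, against 49.4% of protein-coding genes. By log2(TPM + 1) the median was −0.17 over protein-coding genes and −0.03 over the members, and 4 of 8 members lay above 0, against 28.6% of protein-coding genes. The median over the 8 macrophage markers was 0.41 by TMM, with all 8 above 0, and 0.14 by log2(TPM + 1), with 5 of 8 above 0, and their part in the ratios of the members was not tested.

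**Figure D5:**
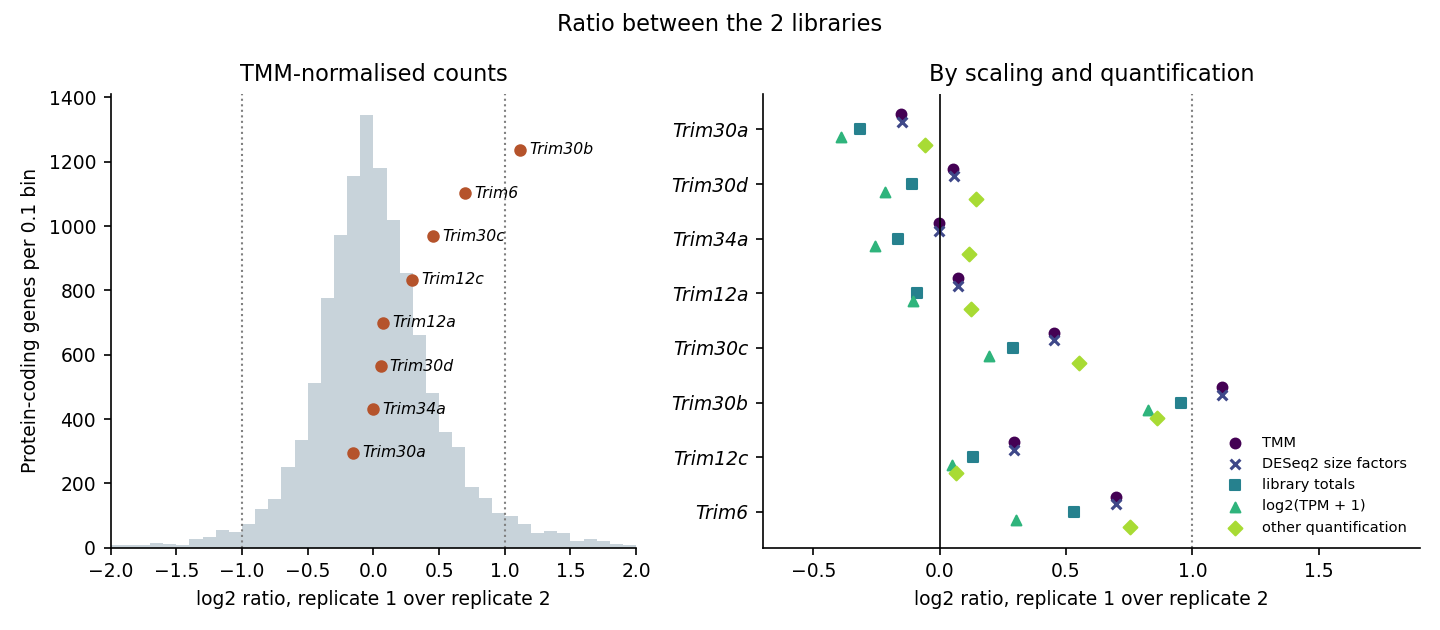
Left, the number of protein-coding genes per bin of 0.1 (y) by log2 ratio of TMM-normalised counts, replicate 1 over replicate 2 (x), with the 8 members as points whose height has no meaning; 86 of 11751 genes lie outside the range drawn. Right, the log2 ratio of each member (y) under 5 scalings or quantifications; dotted lines mark 2-fold, which Trim30b passes by TMM and by DESeq2 size factors.

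The 3 members without the core in their RefSeq window, Trim30b, Trim6 and Trim30c, had log2 ratios from 0.45 to 1.12. The 5 members with it had log2 ratios from −0.15 to 0.29. The ranges lay apart in the same way by log2(TPM + 1), at 0.20 to 0.83 and −0.39 to 0.05, and in the other quantification, at 0.55 to 0.86 and −0.06 to 0.14. These values come from the same 2 libraries, so they are no further support. Outside the members, Trim34b, without the core, stood at −0.27 by TMM, from 13.3 and 13.2 expected counts, and so went against the split. Trim5, with the core, stood at −0.21. The Trim30b window is not at the 5′ end of its GENCODE gene. This split was noticed after the values were seen and has no test, and the mean levels of the 2 sets overlapped.

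All 11 genes of interferon signalling were detected and had a log2 ratio above 0 by TMM, with a median of 0.36. More than 2-fold higher in replicate 1 was 1 of them, Irf7, against 5.37% of all genes. By log2(TPM + 1) 7 of 11 lay above 0, the median was 0.09 and 0 were past 2-fold. Irf7, the factor that drives interferon-α genes, stood at 421 TPM in replicate 1 and 219.9 TPM in replicate 2. A list of 20 interferon-induced effectors, chosen after results of these libraries were known, was detected in full. Its median was 0.64 with TMM scaling and 0.39 by log2(TPM + 1). Past 2-fold and higher in replicate 1 lay 5 of these by TMM, against 5.37% of all genes, and 3 by log2(TPM + 1). No share over all genes is given here for log2(TPM + 1). Rsad2 (viperin) stood at 1037 TPM in replicate 1 and 584 TPM in replicate 2, and Ifit2, which binds viral RNA, at 689 and 561 TPM. By TMM the log2 ratios of the 8 members ran from −0.15 (Trim30a) to 1.12 (Trim30b), with a median of 0.18. The part of these differences in the values of the members was not tested.

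Of 12 reported partners of TRIM30 and TRIM6, 11 were detected, and Myc, at 0.97 TPM in replicate 1 and 0.90 TPM in replicate 2, was not. Ikbke, which encodes the IKKε kinase that TRIM6 chains activate, was the highest at 237 ± 18.6 TPM (SD, n = 2). Tab2, which encodes a reported target of TRIM30a, followed at 34.5 ± 8.94 TPM. Tab3, the other target, named here after its values were seen, was at 2.44 ± 0.177 TPM. The median log2 ratio of the partners was −0.10 by TMM, with 5 of 12 above 0, against 49.4% of protein-coding genes, and 0 past 2-fold. It was −0.26 by library totals and −0.24 by log2(TPM + 1), with 3 of 12 above 0 in each, against 33.7% and 28.6% of protein-coding genes, and 0.0078 in the other quantification. The remaining TRIM family genes stood at a median of −0.05 on the TMM log2 scale, over the 40 whose counts averaged 10 or more. The median was −0.21 by library totals, −0.10 by log2(TPM + 1) and 0.01 in the other quantification. By TMM 19 of the 40 lay above 0, 2 more than 2-fold higher in replicate 1 and 1 more than 2-fold higher in replicate 2. Of all genes averaging 10 counts or more, 5.37% were more than 2-fold higher in replicate 1 and 3.08% in replicate 2.

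The protein-coding genes most like Trim30a in these libraries were Son, Fnip2 and Osbpl8, by distance in the plane of mean log2(TPM + 1) and log2 ratio among 9994 candidates averaging 50 counts or more. Son stood at 127.8 TPM in replicate 1 and 167.55 TPM in replicate 2, Fnip2 at 122.9 and 168 TPM and Osbpl8 at 122 and 163 TPM. Likeness over 2 libraries is a description and carries no test.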

How the data were processed

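The authors deposited, per the file headers, an expected count, its assignment SD and a TPM, for genes and for transcripts. For each transcript they also deposited its percent of the TPM of its gene. Per the deposited file descriptions these came from an alignment to the transcriptome for mm10 with GENCODE M21, and the other table, with an estimated count and a TPM per transcript, directly from reads. No quantifier, aligner or version is given in the sources used here.

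Gene names, coordinates and transcript types came from GENCODE M21, and start windows from RefSeq GRCm38.p6. Expected counts were rounded to whole numbers. TMM factors (edgeR 4.0.16 in R 4.3.3) used genes averaging 10 counts or more, and log2 ratios had 0.5 added to each count. Alternatives were DESeq2 1.42.0 size factors, library totals, log2(TPM + 1) with a pseudocount of 1, 5 added counts, other detection and count limits, each library alone and the other quantification. Levels were also rescaled to the TPM of protein-coding genes. Entries that name no gene were left out (1.06% of replicate 1 and 0.245% of replicate 2). The ratio step was tested on simulated data.

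Genes were named by rule: all members, Trim genes and pseudogenes of the region and neighbours at a TPM of at least 1, the 2 highest genes of each list and its undetected genes where these were at most 3, the 3 genes nearest to Trim30a, and transcripts with at least 10% of a member's TPM. Some genes that this rule covers are not reported here. The members and lists were chosen with earlier results of these data known. Both libraries formed 1 group, so no test was made.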

Additional observations from a re-analysis of the deposited data

How the results depend on the processing

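All 8 members were also detected at limits of 2 TPM and 20 counts and in the other quantification. The Trim30a share of the members' summed TPM, 37.3%, ranged from 34.5% to 39.98% with each library alone and was 45.8% by expected counts, which do not divide by length. The count of members past 2-fold, 1 (Trim30b), was 0 by library totals, by log2(TPM + 1) and in the other quantification, where the log2 ratio of Trim30b was 0.95, 0.83 and 0.86. Of protein-coding genes, 4.05% were more than 2-fold higher in replicate 1 by TMM and 3.43% in the other quantification. That share is not given here for library totals or log2(TPM + 1). The median log2 ratio of the members, 0.18, was 0.020 by library totals and −0.030 by log2(TPM + 1), while that of all protein-coding genes moved from −0.01 to −0.17 in both. Ratios close to 0 changed side for Trim30d and Trim12a, which were below 0 by library totals and log2(TPM + 1), and for Trim34a, above 0 in the other quantification. The cause was not tested. Levels moved by more than the SD of the libraries in the other quantification for 7 of 8 members. TPM there was scaled over its own set of targets, and this difference of scale enters that count. Rescaling the first tables to protein-coding genes moved the levels of all 8 members, the mean of Trim30a from 148 to 699 TPM and that of Trim6 from 4.30 to 20.5 TPM. No paired analysis was possible because both libraries belong to 1 group. The 281 counts of Trim6 in replicate 2 give the widest interval on a ratio.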
